A study of Mus musculus with 4 samples.

Results

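The 10 genes described here control the G1 phase of the cell cycle: the D cyclin genes Ccnd1, Ccnd2 and Ccnd3, the kinase genes Cdk2, Cdk4 and Cdk6, the retinoblastoma family genes Rb1, Rbl1 and Rbl2, and the inhibitor gene Cdkn1b. They were chosen by name, with earlier results of these data known. All 10 were found among the 45706 genes of the count table and passed the filter on low counts. RNA came from V6.5 mouse embryonic stem cells, grown on irradiated feeder cells with 15% serum, 1000 U/ml LIF and the pair of inhibitors called 2i (1 µM MEK inhibitor and 3 µM GSK3 inhibitor). All lines had been infected with a lentivirus that carries a doxycycline-inducible Cas9 with GFP, a puromycin marker and guide RNAs, and clones had been picked and checked by western blot for knockout. Guides are described for Klf4 by itself and for the set of Klf2, Klf4 and Klf5. The titles of all 4 libraries begin with TKO, an abbreviation that the labels do not spell out, while those at 24 h go on to name KLF4 only, so that the guides in a library are not given without doubt. The 0 h group (replicates A and B) is labelled KLF WT and had no doxycycline. The 24 h group (replicates A and B) is labelled KLF KO and had 24 h of doxycycline. Doxycycline, DNA cutting by Cas9, KLF loss and elapsed time therefore share 1 contrast and cannot be told apart.

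D cyclins bind CDK4 and CDK6, and the resulting kinases phosphorylate the pocket proteins RB, p107 and p130, encoded by Rb1, Rbl1 and Rbl2. Unphosphorylated pocket proteins hold back E2F transcription factors, and cyclin E with CDK2 completes their phosphorylation at the entry into S phase. The protein p27, encoded by Cdkn1b, inhibits CDK2 complexes. Mouse embryonic stem cells are known for a short G1 phase, in which RB is largely held in a phosphorylated state and D cyclin levels are low compared with those of differentiated cells. All values here are transcript levels. Protein, phosphorylation and cell cycle phase were not analysed here.

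Libraries held 46031578 to 52412844 counts, and levels are given as CPM, the usual unit of a gene's count relative to its library's total, after TMM scaling between libraries. The library 0 h A stood apart from the others: its deviation from the gene means correlated with gene GC content at r = 0.603 over 14331 genes (genes are not independent replicates), while r was -0.277, -0.242 and -0.334 in 0 h B, 24 h A and 24 h B. Replicates A and B differed more at 0 h (SD of their log2 differences over genes 0.325) than at 24 h (0.155). The embryonic stem cell markers (8 measured) summed to 4461 and 4365 CPM at 0 h and to 3901 and 3958 CPM at 24 h. Of the 8, 3 were called lower by edgeR's test (Pou5f1, Zfp42 and Utf1), beside 2.65% of all genes. Log2 fold changes were below 0 for 5 of the 8 and above 0 for 3, Sox2 (0.075), Esrrb (0.014) and Dppa5a (0.156). The 12 feeder fibroblast markers summed to 171 and 127 CPM at 0 h and to 142 and 139 CPM at 24 h, and 3 of them (Lum, Dcn and S100a4) were under 1 CPM on average, with 0 of the 12 at 0 counts in every library. Of the 9 feeder markers tested, 1 was called lower (Pdgfrb), beside the same 2.65% of all genes. The part of either cell type in the results below was not tested. In bulk RNA, fewer cells of a type and less RNA per cell cannot be told apart. Among the guides' targets, Klf2 was at 232 and 124 CPM at 0 h and 147 and 152 CPM at 24 h, Klf4 at 331 and 257 against 244 and 236 CPM, and Klf5 at 431 and 294 against 226 and 216 CPM, and 0 of the 3 passed edgeR's test. Klf5 came nearest (log2 fold change -0.72, adjusted p = 0.0567 in edgeR). It was called in 8 of 14 other settings, among them DESeq2's Wald test (adjusted p = 0.00103) and edgeR with the GC and length trend of each library removed (adjusted p = 0.00774), where Klf4 passed too (-0.25, adjusted p = 0.0123). Klf2, at -0.25 with all libraries, was at 0.09 in that fit and did not pass (adjusted p = 0.593 in edgeR). When 0 h A was dropped, Klf5 was at -0.42, Klf4 at -0.10 and Klf2 at 0.28. When 0 h B was dropped instead, they were at -0.97, -0.47 and -0.63. The direction of Klf2 therefore turned on which 0 h library was kept, while Klf4 and Klf5 stayed below 0. Only log2 fold changes are given for these fits, which leave 1 library at 0 h.

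Promoter windows were read from RefSeq's GRCm38.p6 for 7 of the 10 genes, and Ccnd1, Ccnd2 and Rb1 are named only. Each window is the 250 bases before an annotated start, 5′ to 3′ on the gene's strand. These windows are shown because they set Ccnd3 and Rbl1, each with a partner of its own family that changed, beside Cdk4, the highest of the 10 per length. The window of Rbl2, whose family partner Rb1 changed as well, is described below but not printed. Capitals mark fixed motifs searched on both strands: the KLF box (GGGTGTGG or GGGCGTGG), the GC box bound by SP and KLF factors (GGGCGG), the E-box (CACGTG) bound by MYC, and the E2F site (TTTCGCGC, TTTGGCGC, TTTCCCGC or TTTGCCGC).
Ccnd3 upstream start (chr17:47504801-47505050, + strand): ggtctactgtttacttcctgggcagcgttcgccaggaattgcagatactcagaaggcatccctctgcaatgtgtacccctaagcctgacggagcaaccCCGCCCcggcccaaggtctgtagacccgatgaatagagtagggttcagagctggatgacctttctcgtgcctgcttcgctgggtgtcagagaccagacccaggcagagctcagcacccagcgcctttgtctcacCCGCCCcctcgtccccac
Ccnd3 downstream start (chr17:47593217-47593466, + strand): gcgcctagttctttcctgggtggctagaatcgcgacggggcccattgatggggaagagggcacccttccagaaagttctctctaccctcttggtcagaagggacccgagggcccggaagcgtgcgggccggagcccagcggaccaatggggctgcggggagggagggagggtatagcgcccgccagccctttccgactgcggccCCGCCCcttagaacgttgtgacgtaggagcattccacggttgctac
Cdk4 (chr10:127063285-127063534, + strand): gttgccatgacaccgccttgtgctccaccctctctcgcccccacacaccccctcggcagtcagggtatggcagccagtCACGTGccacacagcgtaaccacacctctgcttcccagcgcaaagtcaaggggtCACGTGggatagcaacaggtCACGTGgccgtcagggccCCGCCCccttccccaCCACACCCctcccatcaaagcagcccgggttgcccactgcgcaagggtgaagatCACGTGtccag
Rbl1 (chr2:157204535-157204784, - strand): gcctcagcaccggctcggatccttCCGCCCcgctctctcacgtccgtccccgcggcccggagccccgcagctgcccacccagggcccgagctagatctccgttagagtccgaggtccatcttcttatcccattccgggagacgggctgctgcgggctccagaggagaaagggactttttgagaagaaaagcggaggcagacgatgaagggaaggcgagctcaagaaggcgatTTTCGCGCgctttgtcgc
No motif is contained in another. The Cdk4 window held 4 E-boxes, at 172, 118, 98 and 11 bases before the start, 1 KLF box at 65 and 1 GC box at 80. The Rbl1 window held 1 E2F site, 18 bases before the start, and 1 GC box. The Ccnd3 windows held 2 GC boxes and 1 GC box, with 0 matches to the KLF box. Among 32841 windows of the same length, 7.73% held a KLF box, 32.7% a GC box, 6.02% an E-box and 1.86% an E2F site. The Rbl2 window held 0 matches to any of these motifs, that of Cdk2 1 E2F site and 5 GC boxes, that of Cdk6 1 E-box and that of Cdkn1b 1 GC box. A match describes letters in these windows and not binding, which was not measured in these files.

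Of the 10 genes, 1 fell (Ccnd1), 1 rose (Rb1) and 8 did not pass at 24 h (edgeR's quasi-likelihood F-test, p-values adjusted by the Benjamini-Hochberg method over 18005 genes, limit 0.05). Among all genes tested, 6.8% passed, 4.15% higher and 2.65% lower. Before adjustment, 2 of the 10 were higher (Rb1 and Rbl2) and 3 lower (Ccnd1, Ccnd3 and Cdkn1b) at a p under 0.05, where 25.8% of all genes passed that limit (13.2% higher and 12.6% lower). The median log2 fold change of the 10 was -0.13, against -0.01 for all genes tested. Of the 10 values 3 were above 0 and 7 below, beside 8854 above and 9151 below among all genes tested. In CPM the groups did not overlap for 7 of the 10, 5 lower and 2 higher at 24 h, beside 58.8% of all genes (29.5% lower and 29.3% higher). With the GC and length trend of each library removed, 2 of the 10 were called higher and 6 lower, where 28.8% of all genes were called (10.3% higher and 18.4% lower). The median log2 fold change of all genes was -0.07 in that fit. With 24 h replicate A or B left out, 0 of the 10 were called, where 3.02% and 2.71% of all genes were. With 0 h replicate A or B left out, 2 were called higher and 5 lower each time. Of all genes, 32.2% (16.5% higher and 15.8% lower) and 50.2% (23.2% higher and 27% lower) were called in these fits.

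**Figure D1:**
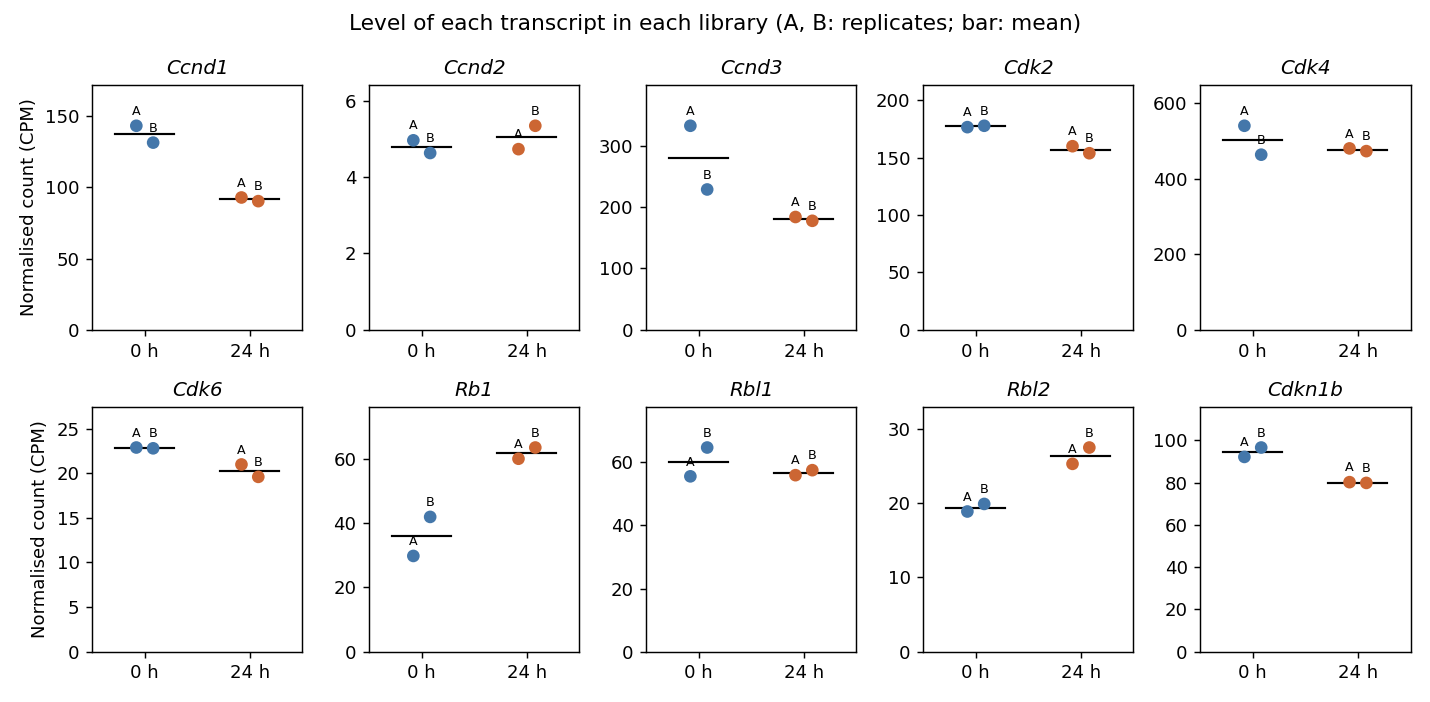
Normalised count (CPM, y axis from 0 in each panel) of each of the 10 genes in each library, with replicates A and B as points and the group mean as a bar. Ccnd1 is lower in both 24 h libraries and Rb1 and Rbl2 are higher in both, while the 0 h replicates of Ccnd3 (332 and 229 CPM) lie far apart.

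Cyclin D1 transcripts fell. Ccnd1, which encodes cyclin D1, was at 143 and 131 CPM at 0 h (replicates A and B) and at 92.8 and 90.2 CPM at 24 h. Both 24 h libraries were lower than both 0 h libraries, and each pair of replicates lay close together. The group means were 137 ± 8.33 CPM and 91.5 ± 1.81 CPM (SD, n = 2 each). On the log2 scale the change was -0.58 (SE 0.10, 95% interval -0.83 to -0.34), and edgeR's adjusted p was 0.0236. Ccnd1 (ENSMUSG00000070348, chromosome 7, 144929931 to 144939925, minus strand) overlaps LTO1 on the other strand over 1100 of its 4709 exonic bases. The strand setting of the counting is not given in the sources used here, so that its counts are uncertain, although LTO1 itself held only 403 to 543 counts per library against 4221 to 7235 for Ccnd1. The call ended when either 24 h library was left out, at a log2 fold change of -0.62 without replicate A (adjusted p = 0.277 in edgeR) and -0.58 without replicate B (adjusted p = 0.376). Such a fit takes the spread of the single remaining sample to be that of the other group.

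Ccnd3, which encodes cyclin D3, had a fold change as large as that of Ccnd1 but a wider error. It was at 332 and 229 CPM at 0 h and at 184 and 178 CPM at 24 h. The groups did not overlap, and 0 h A was far above 0 h B. The log2 fold change was -0.63 (SE 0.17, 95% interval -1.04 to -0.23), with an adjusted p of 0.0763 in edgeR. Ccnd3 (ENSMUSG00000034165, chromosome 17, 47505051 to 47599691) has a high GC content of 56.7%, and 0 h A is the library in which genes of high GC content were raised. Removing the GC and length trend of each library gave -0.51 (adjusted p = 0.00134 in edgeR). Leaving out 0 h replicate A gave -0.34, and leaving out 0 h replicate B gave -0.88. The spread in such a fit comes from the 24 h libraries only, so that only log2 fold changes are given for it. Ccnd3 passed DESeq2's Wald test (adjusted p = 0.00443) and edgeR with no filter on low counts (0.00195), but not limma voom (adjusted p = 0.0895).

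A processed pseudogene of Ccnd3, Ccnd3-ps (chromosome 4, 139345300 to 139346180), held 1632 and 1180 counts at 0 h and 946 and 870 counts at 24 h. These were 9.71%, 10.6%, 10.4% and 10.5% of the Ccnd3 counts in 0 h A, 0 h B, 24 h A and 24 h B. How reads were divided between the gene and its pseudogene was not tested, and the counts of Ccnd3 are uncertain for that reason. Ccnd3-ps itself stood at -0.59 on the log2 scale (edgeR, adjusted p = 0.0789). Ccnd3 also overlaps Bysl on the other strand, over 361 exonic bases.

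Ccnd2, which encodes cyclin D2, was at 4.96 and 4.63 CPM at 0 h and 4.73 and 5.34 CPM at 24 h. The groups overlapped. Its log2 fold change was 0.07, and the 95% interval ran from -0.34 to 0.48, which spans 0.791 to 1.39 times the 0 h level (adjusted p = 0.829 in edgeR). Ccnd2 rests on 225 to 251 counts per library, the fewest of the 10 genes. On the other strand, 9330179D12Rik and Gm43126 overlap 368 and 372 of its exonic bases, with 0 counts in every library.

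Levels of different genes were compared per kilobase of exon. The D cyclin transcripts were made up almost wholly of Ccnd1 and Ccnd3. Ccnd1 held 44.2% and 51.2% of the family at 0 h and 47.9% and 47.9% at 24 h. Ccnd3 held 55.1% and 47.9% at 0 h and 50.9% and 50.6% at 24 h. The difference of 0.212 points for Ccnd1 was smaller than the SD of 4.99 points between the 0 h libraries (exact permutation p = 1, 2-sided). Ccnd2 held 0.767% and 0.904% at 0 h and 1.22% and 1.42% at 24 h, without overlap, with an exact permutation p of 0.333, the smallest that 2 libraries against 2 allow. These shares depend on the gene length taken. With the longest coding transcript (2113 bases for Ccnd3 in place of a union of exons of 8775), Ccnd3 held 77.6% at 0 h and 77.2% at 24 h, and Ccnd1 21.9% and 22.1%. With either length, the difference between 0 h and 24 h in the share of Ccnd1 and of Ccnd3 lay within the spread of the 0 h libraries. That spread includes 0 h A, the library set apart by gene GC content, and the GC trend was not removed from the shares.

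**Figure D2:**
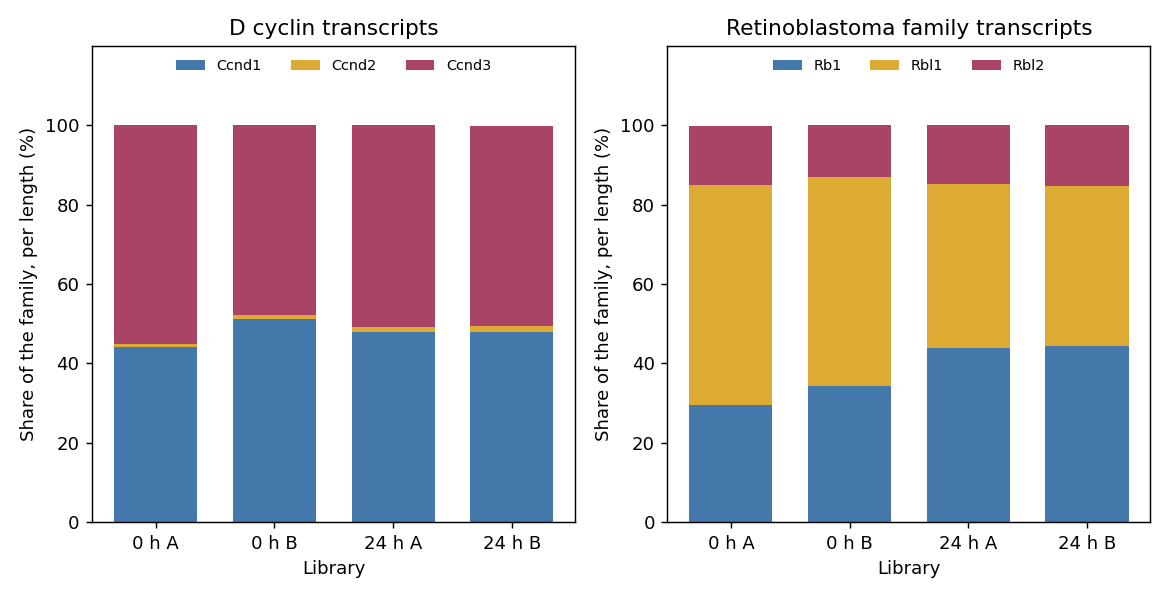
Share (%) of each gene in the summed level of its family in each library, in CPM per kilobase of the union of exons, for the D cyclins (left) and the retinoblastoma family (right). Bars add to 100%. Ccnd1 stays between 44.2% and 51.2% of the D cyclins, while Rb1 goes from 29.6% and 34.2% at 0 h to 44.0% and 44.4% at 24 h.

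The kinase partners of the D cyclins showed no called change. Cdk4 was at 540 and 464 CPM at 0 h and 480 and 473 CPM at 24 h. The groups overlapped, and the log2 fold change of -0.07 had a 95% interval of -0.33 to 0.18 (adjusted p = 0.698 in edgeR). Leaving out 0 h replicate A gave 0.04, and leaving out 0 h replicate B gave -0.18. Cdk4 (chromosome 10, 127063534 to 127067920) shares 641 of its 3249 exonic bases with Tspan31 on the other strand, which held 2010 to 2463 counts, against 22135 to 27325 for Cdk4. Cdk6, the other D cyclin kinase, was at 22.9 and 22.8 CPM at 0 h and 21.0 and 19.6 CPM at 24 h. Its groups did not overlap, but the log2 fold change of -0.17 (95% interval -0.46 to 0.12) did not pass (adjusted p = 0.418 in edgeR), other than with the GC and length trend removed (-0.38, adjusted p = 0.0155). Per length, Cdk4 held 99.0% and 98.9% of the summed Cdk4 and Cdk6 level at 0 h, and 99.0% and 99.0% at 24 h.

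Cdk2, the partner of cyclins E and A, was at 176.5 and 178 CPM at 0 h and at 160 and 154 CPM at 24 h. The groups did not overlap, and the 0 h replicates lay close together. The log2 fold change was -0.17 (95% interval -0.40 to 0.05, adjusted p = 0.294 in edgeR). It passed at -0.25 with that trend removed (adjusted p = 0.0109 in edgeR), and was at -0.18 or -0.17 with 0 h replicate A or B left out. Cdk2 shares 34 of its 6219 exonic bases with Pmel on the other strand. Cdkn1b, the inhibitor p27, had 92.2 and 96.7 CPM at 0 h and 80.3 and 79.9 CPM at 24 h. The groups did not overlap. Its log2 fold change was -0.24 (95% interval -0.47 to -0.002), with an unadjusted p of 0.0487 and an adjusted p of 0.192 in edgeR, and it was -0.41 (adjusted p = 0.00356) with the trend removed. Leaving out 0 h replicate A gave -0.27 and leaving out 0 h replicate B -0.21. The Cdkn1b annotation (chromosome 6, 134920401 to 134925513) has 0 overlapping genes, and its GC content is 43.1%.

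Rb1 rose. The gene of the retinoblastoma protein was at 29.8 and 41.9 CPM at 0 h and at 60.0 and 63.5 CPM at 24 h. Both 24 h libraries were above both 0 h libraries, and 0 h A was the lowest of the 4. Means were 35.8 ± 8.59 CPM and 61.7 ± 2.47 CPM (SD, n = 2 each), 1.72-fold apart. The log2 fold change was 0.79 (SE 0.17, 95% interval 0.39 to 1.18), and edgeR's adjusted p was 0.0408. Rb1 has the lowest GC content of the 10 (41.2%), and its 0 h replicates differ in the direction opposite to Ccnd3. With the GC and length trend removed the log2 fold change was 0.61 (adjusted p = 0.00234 in edgeR). It was 0.56 with 0 h replicate A left out and 1.05 with 0 h replicate B left out. Without 24 h replicate A the adjusted p was 0.081 (log2 fold change 0.80), and without 24 h replicate B 0.16 (0.73), which ends the call.

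Rb1 (ENSMUSG00000022105, chromosome 14, 73183673 to 73325822, minus strand) overlaps Lpar6 and Rcbtb2, both on the other strand. Exons are shared over 408 bases with Lpar6 and 488 bases with Rcbtb2, of 6015 exonic bases in Rb1. Lpar6 held 167 and 265 counts at 0 h and 351 and 358 at 24 h, and Rcbtb2 1374 and 1245 against 1569 and 1398, beside 1506 and 2037 against 2981 and 2971 counts for Rb1. Lpar6 was higher in both 24 h libraries, as Rb1 was, and the counts of Rb1 are uncertain where the exons are shared.

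The other retinoblastoma family genes did not pass the test with all libraries, and whether their changes differ from that of Rb1 was not tested. Rbl2, which encodes p130, the pocket protein of resting cells, was at 18.9 and 19.9 CPM at 0 h and 25.3 and 27.5 CPM at 24 h. The groups did not overlap, and the log2 fold change was 0.45 (SE 0.12, 95% interval 0.15 to 0.74), with an adjusted p of 0.0829 in edgeR. It passed at 0.33 when the GC and length trend was removed (adjusted p = 0.0201 in edgeR), and was at 0.41 and 0.48 without 0 h replicate A or B. Rbl2 (chromosome 8, 91070057 to 91123844) shares 693 exonic bases with Aktip on the other strand, which held 2366 to 2487 counts against 955 to 1287 for Rbl2. It also shares 892 of its 7558 exonic bases with Gm45464 on the other strand, for which no counts were given, and its counts are uncertain. Rbl1, which encodes p107 and is itself known as an E2F target, was at 55.5 and 64.7 CPM at 0 h and 55.9 and 57.5 CPM at 24 h. These groups overlapped, with a log2 fold change of -0.08 (95% interval -0.36 to 0.19, adjusted p = 0.688 in edgeR). It passed at -0.26 with the trend removed (adjusted p = 0.014 in edgeR). It was at -0.19 with 0 h replicate A left out, while leaving out 0 h replicate B turned it to 0.025. A processed pseudogene, Gm14277, lies within Rbl1 on the other strand with 0 shared exonic bases and 2356 to 2895 counts. The promoter window of Rbl1 is the printed one with an E2F site.

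The mix of pocket protein transcripts was computed after these values were seen. Per length, Rbl1 held 55.4% and 52.9% of the family at 0 h, and 41.2% and 40.3% at 24 h. Rb1 held 29.6% and 34.2% at 0 h, and 44.0% and 44.4% at 24 h, above Rbl1 in both 24 h libraries. Rbl2 held 14.9% and 12.9%, then 14.8% and 15.3%. The difference of 12.3 points in the Rb1 share exceeded its spread between replicates (SD 3.23 and 0.241 points, n = 2), and the groups did not overlap, but the exact permutation p of 0.333 is the smallest this design can give. A share within a library does not depend on scaling between libraries, and it was nearly the same with the longest coding transcript as length (31.9% and 43.8% for Rb1). The GC trend of each library was not removed from these shares.

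**Figure D3:**
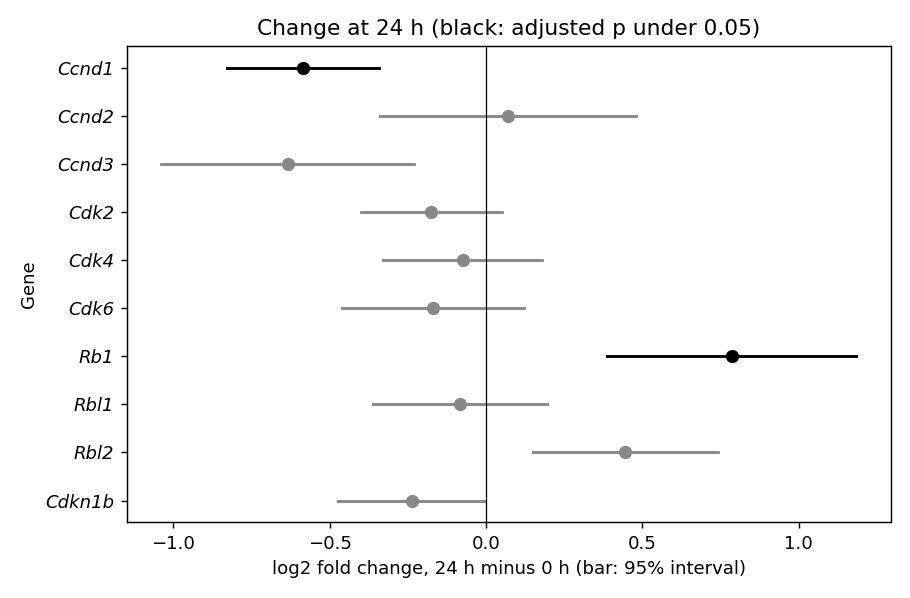
The log2 fold change of each of the 10 genes at 24 h relative to 0 h (x axis), with the unadjusted 95% interval from edgeR's fit as a bar. Black marks an adjusted p under 0.05 (Ccnd1 at -0.58 and Rb1 at 0.79), and the intervals of Ccnd3 and Rbl2 lie on 1 side of 0 although their adjusted p-values were 0.0763 and 0.0829.

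Ordered by level per kilobase at 0 h, Cdk4 came first with 154.5 CPM per kilobase (mean), then Ccnd3 with 32.0, Ccnd1 with 29.1, Cdk2 with 28.5, Cdkn1b with 20.8, Rbl1 with 10.03, Rb1 with 5.96, Rbl2 with 2.56, Cdk6 with 1.63 and Ccnd2 with 0.51. The libraries of neighbours did not overlap, except those of Ccnd3 and Ccnd1 and those of Ccnd1 and Cdk2. At 24 h Cdk2 (25.2 CPM per kilobase) stood above Ccnd3 (20.6) and Ccnd1 (19.4), and Rb1 (10.3) above Rbl1 (9.46), with no overlap between neighbours. With the longest coding transcript as length, Cdk2 stood above Ccnd1 at 0 h too, and 2 of the 10 ranks at 0 h differed.

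**Figure D4:**
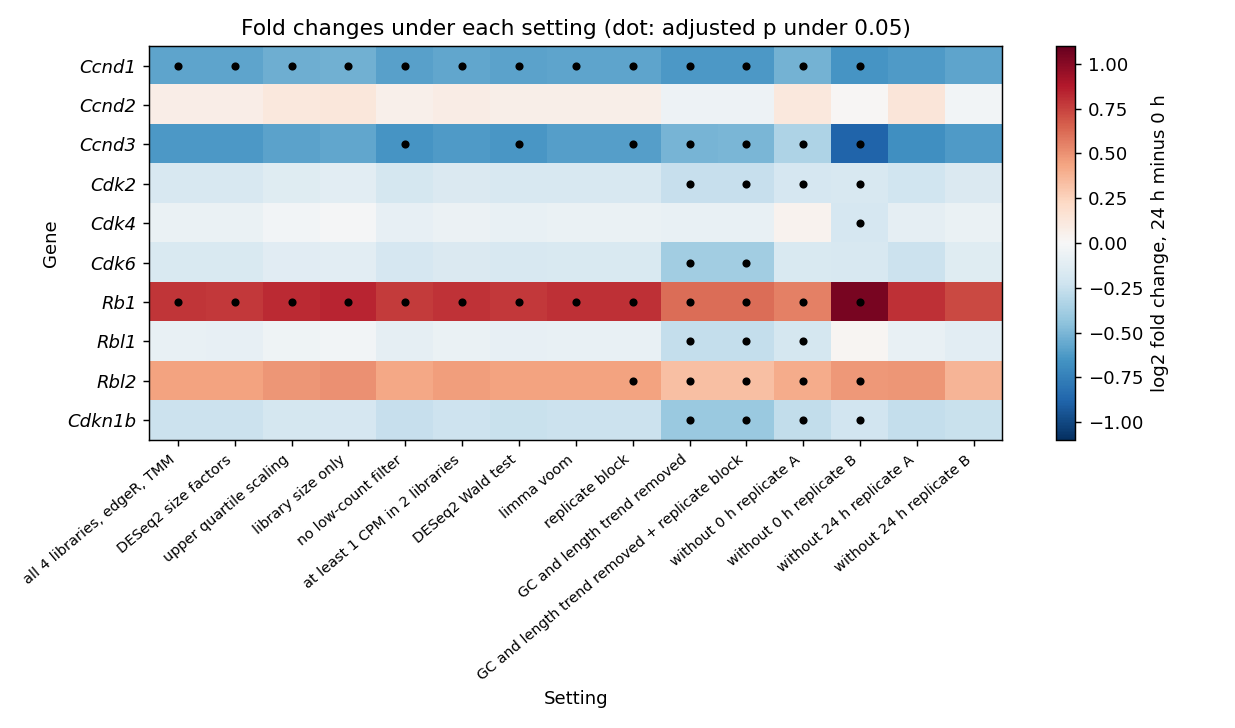
The log2 fold change (colour, 24 h minus 0 h) of each of the 10 genes with all 4 libraries in edgeR with TMM scaling and under each of the 14 other settings, with a dot where the adjusted p was under 0.05. Ccnd1 and Rb1 lose their dots only without a 24 h library, and most other genes gain them with the GC and length trend removed or with 1 library of the 0 h group left out. A fit with a library left out takes its spread from the other group only.

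Around these 10, 63 other genes of the G1 and S phase were measured, in 6 lists. Of the 63, 1 rose, 1 fell and 61 did not pass edgeR's test, that is 3.17% called against 6.8% of all genes. Their median log2 fold change was -0.09, with 22 positive and 41 negative, beside 8854 positive and 9151 negative among all genes tested. Of 6 other CDK inhibitor genes, Cdkn1c, which encodes p57, rose from 6.19 and 5.95 CPM to 10.1 and 10.1 CPM (0.73 on the log2 scale, SE 0.15, edgeR's adjusted p = 0.0334), and 5 did not pass. Both 24 h libraries stood above the 0 h libraries, at a low level. The annotation of Cdkn1c overlaps an antisense gene, Gm44732, over 625 exonic bases, and its counts are uncertain. Cdkn2c, which encodes p18, an inhibitor of CDK4 and CDK6, is named after its values were seen, as the other gene of this list with an unadjusted p under 0.05. It was at 9.13 and 6.73 CPM at 0 h and at 5.45 and 4.94 CPM at 24 h, without overlap (log2 fold change -0.61, 95% interval -1.08 to -0.14, adjusted p = 0.115 in edgeR). The median of this list was -0.06.

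Of 10 E2F and DP factor genes, E2f2, an activating E2F, fell from 23.4 and 17.3 CPM to 11.2 and 10.2 CPM (-0.93 on the log2 scale, SE 0.18, edgeR's adjusted p = 0.0292), and 9 did not pass. Both 24 h libraries were below both 0 h libraries. The list's median was -0.09. Without 24 h replicate B the adjusted p of E2f2 was 0.122. Leaving out 24 h replicate A or B gave Cdkn1c an adjusted p of 0.269 or 0.277 in edgeR, which also ends its call.

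In each of the remaining 4 lists, 0 genes passed edgeR's test. The unadjusted counts below stand beside 25.8% of all genes with an unadjusted p under 0.05 (13.2% higher and 12.6% lower). Of 8 genes of cyclins E and A and CDK2 activation, 1 had an unadjusted p under 0.05, Ccne1, which encodes cyclin E1, at 145 and 160 CPM at 0 h and 126 and 125 CPM at 24 h (log2 fold change -0.28, adjusted p = 0.151 in edgeR). The next by p was Cdc25a, the phosphatase that activates CDK2, with a log2 fold change of -0.12. The next list held 9 genes linked to the DREAM repressor complex or its MuvB core, not all of them partners of p107 and p130. Of these 9, 1 was under that limit, Mybl1 (log2 fold change 0.42, adjusted p = 0.129 in edgeR), followed by Lin37 (-0.25). Of 10 ubiquitin ligase genes and partners that act on D cyclins, cyclin E and p27, 1 was under it, Fbxw7, which marks cyclin E for degradation (log2 fold change 0.28, adjusted p = 0.141 in edgeR), and Fbxo31 was at -0.51 with 49.8 CPM in 0 h A and 28.9 in 0 h B. Of 20 S phase targets of E2F, 5 had an unadjusted p under 0.05 and were lower, with Mcm5 (-0.41, adjusted p = 0.0895 in edgeR) and Pcna (-0.35, adjusted p = 0.0923) first. Of these 20, 17 log2 fold changes were negative and 3 positive, with a median of -0.18, beside 9151 negative and 8854 positive among all genes tested. Of the 47 genes in these 4 lists, DESeq2's Wald test called 2, both lower (Cdt1 and Mcm5), and limma voom 0. Cdt1 was at 300.5 and 185 CPM at 0 h and at 169 and 165 CPM at 24 h, with 0 h A far above 0 h B. Mcm5 was at 713 and 580 CPM at 0 h and at 494 and 476 CPM at 24 h, also highest in 0 h A. DESeq2 called 7.13% of 26673 genes (3.59% lower). These are all genes with a p-value, including any that DESeq2's own filter on low mean counts left without an adjusted p. For limma voom it was 6.03% of the 18005 genes that passed edgeR's filter on low counts. Once the GC and length trend had been taken out, edgeR called 1 of the 47 higher and 22 lower, among them 14 of the 20 S phase targets, all lower, where 18.4% of all genes were called lower. Calls without a 0 h library are not counted here, since the spread in such a fit comes from the 24 h group only.

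**Figure D5:**
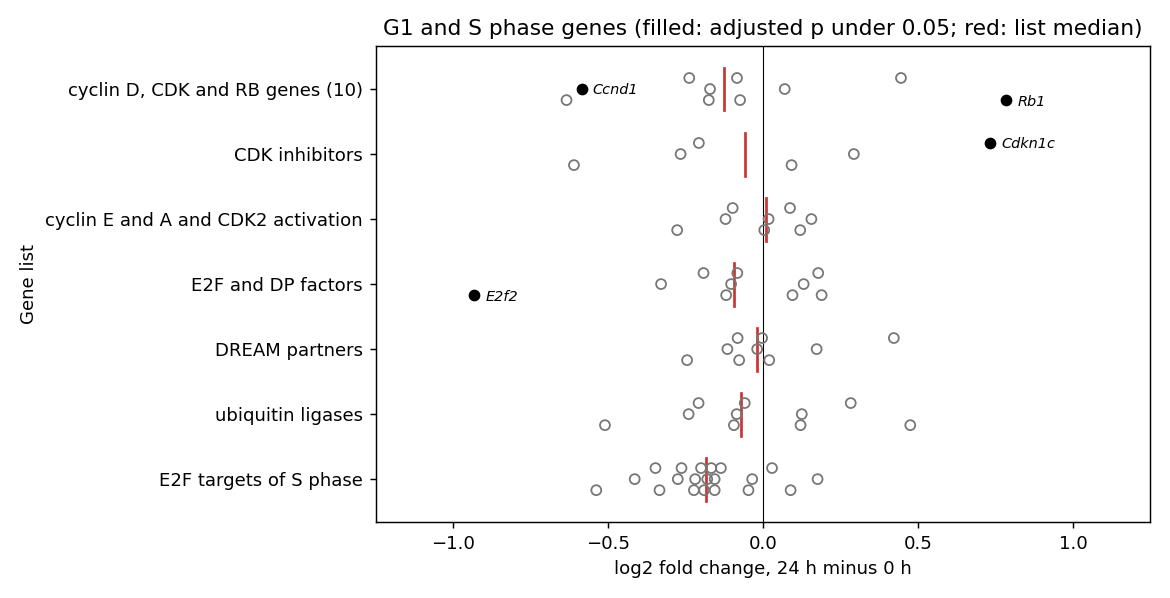
The log2 fold change at 24 h (x axis) of the 10 genes and of 63 other G1 and S phase genes by list (y axis), 1 circle per gene, with filled circles for an adjusted p under 0.05 and a red line at the list's median. Only Ccnd1, Rb1, Cdkn1c and E2f2 are filled, and the S phase targets of E2F lie mostly to the left of 0 (median -0.18).

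The genes whose levels over the 4 libraries lay nearest to those of Ccnd1 were Rab6b, Kdm3b and Chst3, among 9873 genes with a mean of at least 10 CPM (Euclidean distance of centred log2 CPM 0.0111, 0.0181 and 0.0204). Rab6b was at 19.5 and 18.0 CPM at 0 h and at 12.6 and 12.2 CPM at 24 h. Those nearest to Rb1 were Hmmr, Sult6b1 and the long noncoding RNA Rian (0.043, 0.0626 and 0.0702). Hmmr was at 235 and 324 CPM at 0 h and 482 and 497 CPM at 24 h, with 0 h A the lowest, as for Rb1. Within a distance of 0.2, 306 genes lay near Ccnd1 and 47 near Rb1, so that 4 libraries single out no gene. The other strand holds a noncoding gene at Kdm3b and at Sult6b1, and Rian shares exon bases with small RNA genes listed at 0 counts in all 4 libraries.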

How the data were processed

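A stranded kit gave poly(A) RNA libraries, sequenced in 50 nt single reads per the labels' protocols. The authors deposited raw counts by Ensembl gene for 2 libraries per group. The submitters' processing notes name TopHat2, HTSeq, DESeq and the build mm10, with no version and no role. Which annotation release and strand setting they counted with is not given in the sources used here.

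GENCODE M21 (GRCm38, called mm10 elsewhere) supplied symbols, positions, exons and GC content; 563 of 45706 identifiers had no match (0.107% of counts). The filterByExpr rule of edgeR (at least 10 counts, total of at least 15) left 18005 genes. TMM scaled the libraries, which were compared with the quasi-likelihood test of edgeR 4.0.16 in R 4.3.3 (2-sided, Benjamini-Hochberg, threshold 0.05). Intervals are 95% and not adjusted. The spread behind each p-value is that between these samples only, called biological replicates in the series text. The script was tested on simulated data.

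The 10 genes and all lists were chosen with earlier results of these data known. Named genes were the 10, from each list those past the test (up to 4 by p, otherwise the 2 of lowest p), and the 3 nearest profiles of each called gene. Cdt1, Cdkn2c, Lpar6, Ccnd3-ps, the motifs and the shares within the kinases and the pocket proteins were chosen after values were seen. Alternatives used DESeq2 1.42.0, limma 3.58.1 (voom), other scalings and filters, a replicate block, each library left out, and a per-library spline trend on GC content and transcript length. Figures used matplotlib 3.10.9.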

Additional observations from a re-analysis of the deposited data

How the results depend on the processing

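With 2 libraries per group, the number of calls depended on the setting and, where a library was left out, on which group lost it. A fit with a library left out takes its spread from the other group only, so that its calls carry no spread of the group left with a single library. The number of the 10 genes past the test, 2 with all libraries, was 4 with the replicate letter as a block, 8 with the GC and length trend removed, 8 with both, and 0 to 7 with each library left out. For the 63 other G1 and S phase genes it was 2, against 5 with no low-count filter, 4 in DESeq2's Wald test, 7 with the block, 30 with the GC and length trend removed, 34 with both, and 0 to 43 with each library left out. Each of these fits also changed the share of all genes called, to 9.71% with no low-count filter (of 26673 genes), 18.1% with the block and 35.6% with GC trend and block. The median log2 fold change of all genes was -0.007 with all libraries. It was -0.068 with the GC and length trend removed and -0.066 with both, near the Ccnd2 values in these fits. Nothing says that a letter pairs libraries, and the A minus B differences at 0 h and 24 h correlated at r = 0.21 across 14331 genes. With the block Ccnd3 (adjusted p = 0.000188 in edgeR) and Rbl2 (adjusted p = 0.0381) passed as well. Ccnd1 and Rb1 kept their direction in all 14 alternatives and their call in 12 of them, all but those without a 24 h library. Log2 fold changes turned in sign for Ccnd2 (-0.057 with the GC and length trend removed, -0.058 with both, and -0.032 to 0.137 with each library left out), Cdk4 (-0.185 to 0.039 with each library left out), Rbl1 (-0.191 to 0.025 likewise) and Klf2 (0.086 with the GC and length trend removed, 0.098 with both, and -0.634 to 0.278 with each library left out), and the cause was not tested. With the longest coding transcript as length, 2 of 10 ranks at 0 h moved, and the D cyclin shares at 0 h and 24 h were 21.9% and 22.1% for Ccnd1, 0.454% and 0.719% for Ccnd2, and 77.6% and 77.2% for Ccnd3. The 10 genes held 225 to 27325 counts per library, and at the lowest, those of Ccnd2, counting error was not separated from the spread between libraries.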
